A study of Mus musculus with 9 samples.

Results

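The genes described here encode the calcium channel of the sperm tail and the ion transporters that work beside it. The set has 10 genes, listed by name, of 32035 genes measured in mouse testes. It holds the CatSper pore subunits *Catsper1*, *Catsper2*, *Catsper3* and *Catsper4*, the CatSper auxiliary subunits *Catsperb*, *Catsperd* and *Catsperz*, the sperm potassium channel genes *Kcnu1* and *Lrrc52*, and the sodium-proton exchanger gene *Slc9c1*. They were listed by name and not by a threshold on measured values, although earlier results of these data were known when the list was made. All 10 were found in every sample and passed the filter on low counts in every comparison.

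CatSper is an ion channel found in the tail of mature sperm. Its pore is built from the proteins of *Catsper1* to *Catsper4*, which are surrounded by auxiliary subunits, and it lets calcium into the tail when the pH inside the cell rises, which drives the vigorous swimming needed to reach and enter the egg. KCNU1, also called SLO3, is the potassium channel that makes the membrane potential of sperm more negative during capacitation, LRRC52 is its auxiliary subunit, and SLC9C1 exports protons. The genes are transcribed in male germ cells during and after meiosis, so that whole-testis RNA reports on the germ cells that make the later sperm.

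RNA was sequenced from whole testes of 15-week-old male mice on the C57Bl6/N background in 3 groups of 3 samples. WT mice carried unmodified *Kpna6*, the gene of the nuclear import adaptor importin α7. In the ΔIBB/ΔIBB mice exon 2 of *Kpna6* is deleted, and a shortened mRNA encodes a protein without the importin β binding domain. In the Kpna6-/- mice a gene trap cassette lies in intron 1. By the description of the study, this line lacks the protein in other organs but keeps it in the germ cells of the testis and loses it in Sertoli cells, so it is no full null in the cells that express the channel genes. Both mutant alleles were present in all cells of the animal, and nothing in the labels says which animals were littermates or handled together. The P-values therefore set group differences against the spread between these samples, taken as independent. Whether litter or handling differed between the groups is not known.

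Levels are given in TPM, a transcript abundance scaled for transcript length and library size. The 9 libraries held between 24859751 and 31484692 estimated counts on genes, and the 10 channel genes received from 365 to 10324 counts each per library. *Kpna6* itself (chromosome 4, 129643980 to 129672767, GRCm38) was at 146 ± 41.6 TPM (mean ± SD, n = 3) in WT, 33.7 ± 1.5 TPM in ΔIBB/ΔIBB and 137 ± 3.61 TPM in Kpna6-/- testes. The 3 WT samples had 98.3, 163 and 176 TPM, the lowest being below every Kpna6-/- sample. Its log2 fold change was -1.79 (adjusted P = 1.94e-05, edgeR's quasi-likelihood test) between ΔIBB/ΔIBB and WT and -0.18 (adjusted P = 0.586) between Kpna6-/- and WT testes. Markers of the testis were present in all libraries, and of 14 markers of the epididymis, the duct that stores sperm, 8 were under 1 TPM in all of them and *Lcn5* was at 0. The summed level of the 14 was 500.2 to 528 TPM in WT, 539 to 655.5 TPM in ΔIBB/ΔIBB and 504 to 562 TPM in Kpna6-/- testes. The 8 markers under 1 TPM added little to this sum, and the levels of the others are not given singly.

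In WT testes the transcripts of the channel genes differed widely in level. *Catsperz* led with 587 ± 16.1 TPM and *Lrrc52* was lowest with 35.2 ± 3.82 TPM (n = 3). In descending order of mean TPM, *Catsperz* was followed by *Catsper2* (195 TPM), *Catsper4* (124 TPM), *Catsper1* (86.2 TPM), *Catsperd* (81.5 TPM), *Catsper3* (75.1 TPM), *Slc9c1* (54.9 TPM), *Kcnu1* (39.7 TPM), *Catsperb* (37.8 TPM) and *Lrrc52*. The ranges of the 3 WT samples overlapped between *Catsper1* and *Catsperd*, *Catsperd* and *Catsper3*, *Kcnu1* and *Catsperb*, and *Catsperb* and *Lrrc52*, so the order within these pairs was not resolved. The 4 pore subunits thus did not have equal transcript levels, with *Catsper2* at more TPM than each of the other pore genes in every WT sample. In the annotation of *Catsperz*, 587 of 1262 exonic bases (46.5%) overlap exons of *Kcnk4* on the same strand. Its only quantified transcript, *Catsperz-201*, has 784 bases, and the longest stretch found to be shared with a *Kcnk4* transcript was 313 bases. *Kcnk4* had a mean of 0.454 TPM, and how reads of the shared stretch were divided between both genes is uncertain.

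In ΔIBB/ΔIBB testes all 10 channel genes were lower than in WT testes. The falls were of unequal size. They were largest for the potassium channel pair *Lrrc52* and *Kcnu1* and for the pore genes *Catsper3*, *Catsper4* and *Catsper1*, intermediate for *Slc9c1*, and small for *Catsper2* and the auxiliary subunits *Catsperb*, *Catsperz* and *Catsperd*. Each of the 10 had an adjusted P-value below 0.05 (edgeR's quasi-likelihood test, 18797 genes tested), where 18.9% of all genes tested were called lower. In normalised counts (CPM, counts scaled to library size by the TMM method), the 3 ΔIBB/ΔIBB samples lay below the 3 WT samples for 10 of 10 channel genes, against 24.7% of all genes tested. In TPM the samples of *Catsper2*, *Catsperd* and *Catsperz* overlapped, and the share of separate genes over all genes was not computed on this scale. The median log2 fold change of the 10 genes was -0.45, and that of all genes tested was 0.01. In whole-tissue RNA, fewer cells of a type and less RNA per cell cannot be told apart.

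**Figure D1:**
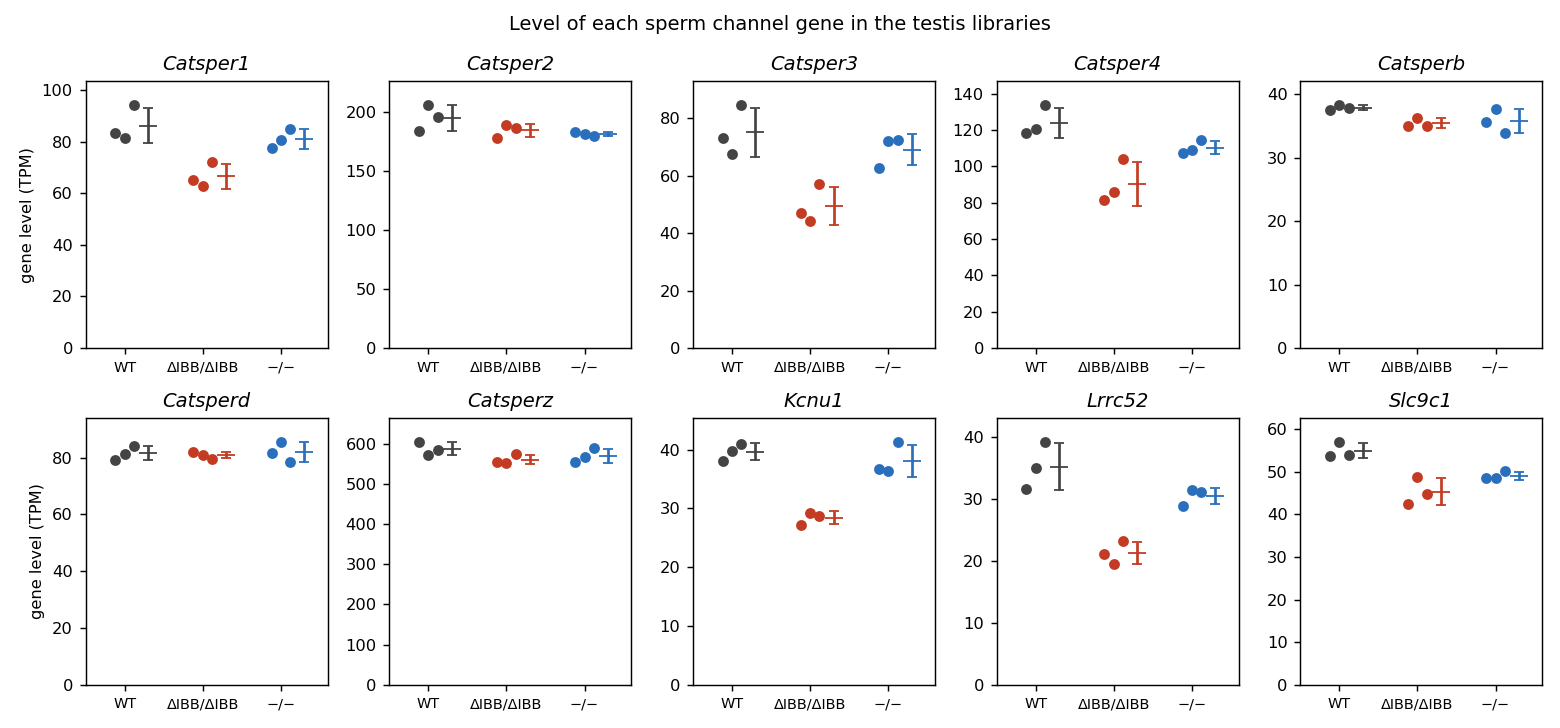
Level of each channel gene in TPM (vertical axes, starting at 0) in the 3 WT, 3 ΔIBB/ΔIBB and 3 Kpna6-/- testes. Points are samples and the bars beside them the mean ± SD. *Lrrc52* fell from 35.2 to 21.3 TPM between WT and ΔIBB/ΔIBB testes, while the points of *Catsperd* overlapped at 81.5 and 80.9 TPM.

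Among the pore subunits, *Catsper3* (chromosome 13, 55784568 to 55808998, plus strand) changed most. Its level was 73.0, 67.7 and 84.5 TPM in WT, 46.9, 44.4 and 57.0 TPM in ΔIBB/ΔIBB and 62.8, 72.0 and 72.6 TPM in Kpna6-/- testes. Every ΔIBB/ΔIBB sample lay below every sample of both other groups, which overlapped each other. Between ΔIBB/ΔIBB and WT the log2 fold change was -0.72 (with a standard error, SE, of 0.10, and adjusted P = 0.000239, edgeR), a fall to 0.606 of the WT count.

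*Catsper4* (chromosome 4, 134211970 to 134227383, minus strand) encodes another pore subunit and lies 4.54 Mb from *Kpna6* on the same chromosome. It was at 118.5, 120.3 and 133.6 TPM in WT, at 81.3, 86.1 and 104 TPM in ΔIBB/ΔIBB and at 107.5, 109 and 114.5 TPM in Kpna6-/- testes. The 3 groups were ordered without overlap, with ΔIBB/ΔIBB lowest and WT highest. In the test of ΔIBB/ΔIBB against WT the log2 fold change was -0.55 (SE 0.08, adjusted P = 0.000332, edgeR).

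*Catsper1* (chromosome 19, 5335741 to 5344280, plus strand), whose protein has the histidine-rich tail linked to the pH response of the channel, was at 83.3, 81.3 and 94.1 TPM in WT, 65.1, 62.6 and 72.1 TPM in ΔIBB/ΔIBB and 77.6, 80.5 and 85.0 TPM in Kpna6-/- testes. All ΔIBB/ΔIBB values were below all others, and the WT and Kpna6-/- ranges overlapped. The log2 fold change between ΔIBB/ΔIBB and WT was -0.49 (SE 0.06, adjusted P = 0.0002, edgeR).

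*Catsper2* (chromosome 2, 121392631 to 121413792, minus strand), the pore gene with the highest level, differed from the other pore genes in the size of its fall. It was at 184, 206 and 196 TPM in WT, 178, 189 and 187 TPM in ΔIBB/ΔIBB and 183.5, 181 and 180 TPM in Kpna6-/- testes. On the TPM scale the ΔIBB/ΔIBB range overlapped both others. With TMM-normalised counts the log2 fold change between ΔIBB/ΔIBB and WT was -0.20 (95% interval -0.31 to -0.10, adjusted P = 0.00749, edgeR), an interval that lay above those of *Catsper1* (-0.64 to -0.35), *Catsper3* (-0.94 to -0.51) and *Catsper4* (-0.72 to -0.38).

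The auxiliary subunits had small falls. *Catsperb* (chromosome 12, 101404653 to 101626009, plus strand), which encodes a large transmembrane subunit, was at 37.4, 38.2 and 37.8 TPM in WT, 35.0, 36.3 and 34.9 TPM in ΔIBB/ΔIBB and 35.6, 37.7 and 33.9 TPM in Kpna6-/- testes. Its ΔIBB/ΔIBB samples lay below the WT samples but overlapped the Kpna6-/- samples. Against WT, ΔIBB/ΔIBB testes had a log2 difference of -0.22 (SE 0.04, adjusted P = 0.00211, edgeR).

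*Catsperd* (chromosome 17, 56628143 to 56664456, plus strand), a second transmembrane subunit, was at 79.2, 81.2 and 84.0 TPM in WT, 82.0, 81.0 and 79.7 TPM in ΔIBB/ΔIBB and 81.8, 85.5 and 78.3 TPM in Kpna6-/- testes, and the 3 groups overlapped on this scale. In TMM-normalised counts it had the smallest fall of the 10, at -0.14 on the log2 scale between ΔIBB/ΔIBB and WT (SE 0.04, adjusted P = 0.0173, edgeR). Without ΔIBB/ΔIBB replicate 2 the value was -0.13 with an adjusted P-value of 0.0703.

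*Catsperz* (chromosome 19, 6922371 to 6925380, minus strand) encodes a small soluble subunit that binds EFCAB9 and helps to arrange the channel in rows along the tail. It was at 604, 572 and 584.5 TPM in WT, 554, 552 and 573 TPM in ΔIBB/ΔIBB and 553, 566 and 588 TPM in Kpna6-/- testes. The highest ΔIBB/ΔIBB sample (573 TPM) lay just above the lowest WT sample (572 TPM). The log2 fold change between ΔIBB/ΔIBB and WT was -0.19 (SE 0.04, adjusted P = 0.00269, edgeR).

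Both genes of the sperm potassium channel fell further than most CatSper genes. *Kcnu1* (chromosome 8, 25849623 to 25937939, plus strand), the pore subunit, was at 38.1, 39.8 and 41.0 TPM in WT, 27.3, 29.3 and 28.8 TPM in ΔIBB/ΔIBB and 36.6, 36.3 and 41.3 TPM in Kpna6-/- testes. The ΔIBB/ΔIBB samples lay well below both other groups, which overlapped. Relative to WT the ΔIBB/ΔIBB samples differed by a log2 value of -0.67 (SE 0.05), the smallest adjusted P-value of the 10 genes (1.51e-05, edgeR).

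*Lrrc52* (chromosome 1, 167445669 to 167466780, minus strand), the auxiliary subunit, had the largest fall of the 10 genes. It was at 31.6, 34.9 and 39.2 TPM in WT, 21.15, 19.5 and 23.2 TPM in ΔIBB/ΔIBB and 28.9, 31.4 and 31.1 TPM in Kpna6-/- testes. The groups did not overlap, narrowly so for Kpna6-/- and WT, with Kpna6-/- between ΔIBB/ΔIBB and WT. The log2 fold change between ΔIBB/ΔIBB and WT was -0.85 (SE 0.09, adjusted P = 7.03e-05, edgeR), a fall to 0.555 of the WT count. Its lowest library had 365 counts, the fewest of any channel gene.

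*Slc9c1* (chromosome 16, 45535309 to 45607001, plus strand), the sodium-proton exchanger, was at 53.7, 56.9 and 53.9 TPM in WT, 42.4, 48.8 and 44.7 TPM in ΔIBB/ΔIBB and 48.4, 48.5 and 50.03 TPM in Kpna6-/- testes. All 6 mutant samples lay below the WT samples, and the mutant groups overlapped. From WT to ΔIBB/ΔIBB the log2 change was -0.40 (SE 0.06, adjusted P = 0.000294, edgeR).

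The scale on which libraries were compared decided the calls of the genes with small falls. Scaling by library size alone moved the median log2 fold change of all genes between ΔIBB/ΔIBB and WT testes from 0.01 to 0.11, and the genes called changed from 3547 lower and 3327 higher to 2326 lower and 5416 higher. With this scaling *Catsperd* at -0.04, *Catsperz* at -0.10 and *Catsper2* at -0.10 were no longer called. The test compares each gene with 0 and not with the shifted median of all genes. With limma on log2(TPM + 1), where the median of all genes was 0.08, 6 channel genes were called, and *Catsper2*, *Catsperb*, *Catsperd* and *Catsperz* were not. Of all genes, 1451 were called lower and 3494 higher in this setting. *Catsper1*, *Catsper3*, *Catsper4*, *Kcnu1*, *Lrrc52* and *Slc9c1* kept an adjusted P-value below 0.05 in all 16 alternatives.

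**Figure D2:**
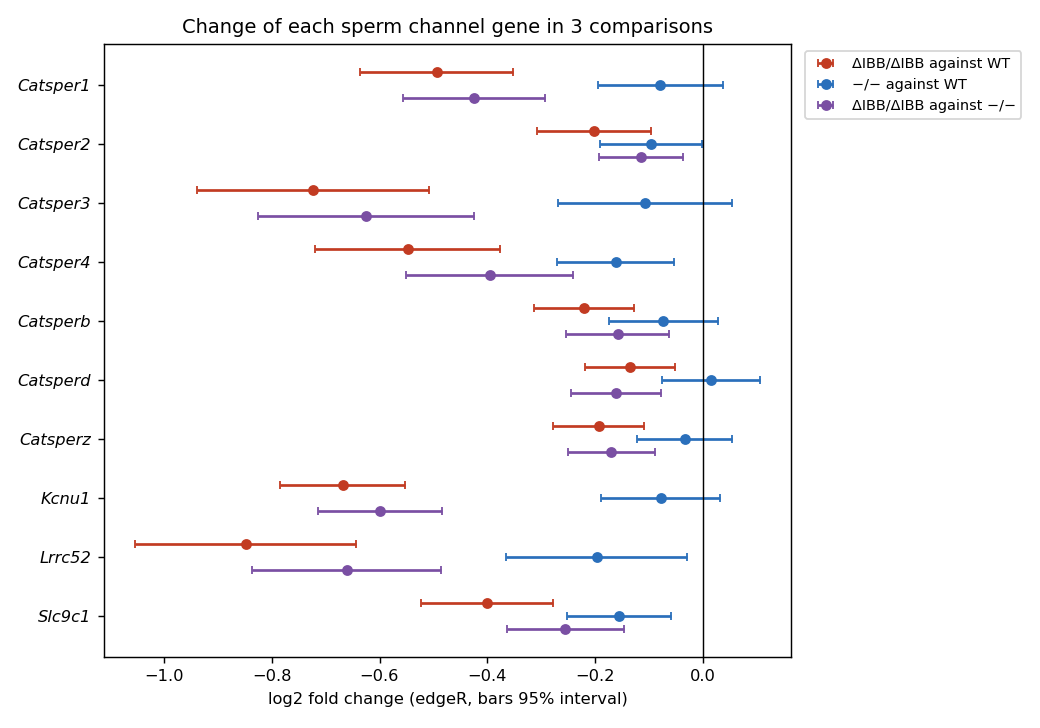
Log2 fold change of each channel gene in 3 comparisons (horizontal axis, TMM-normalised counts, edgeR), with bars for the 95% interval. The ΔIBB/ΔIBB against WT points run from -0.85 for *Lrrc52* to -0.14 for *Catsperd*, and the Kpna6-/- against WT points lie between -0.20 and 0.02.

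Ratios within a library do not depend on how libraries are scaled, so each gene was also set against *Catsper2* of the same sample. These ratios are given as a description, because the reference gene was chosen with the results known. The TPM ratio of *Catsper3* to *Catsper2* was 0.396, 0.329 and 0.432 in WT, 0.263, 0.235 and 0.305 in ΔIBB/ΔIBB and 0.343, 0.397 and 0.403 in Kpna6-/- testes. The ratio of *Lrrc52* to *Catsper2* was 0.180 ± 0.0173 in WT, 0.115 ± 0.0107 in ΔIBB/ΔIBB and 0.168 ± 0.00897 in Kpna6-/- testes (SD, n = 3). For both genes the ΔIBB/ΔIBB samples lay below all others.

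The same separation from WT held for *Catsper1* (0.443 ± 0.0436 in WT and 0.361 ± 0.0274 in ΔIBB/ΔIBB), *Catsper4* (0.637 ± 0.0497 and 0.490 ± 0.0588), *Kcnu1* (0.203 ± 0.00894 and 0.154 ± 0.000975) and *Slc9c1* (0.281 ± 0.0089 and 0.245 ± 0.0114). The ratio of *Catsperb* was 0.194 ± 0.00868 in WT and 0.192 ± 0.00468 in ΔIBB/ΔIBB, that of *Catsperd* 0.418 ± 0.0203 and 0.438 ± 0.0189, and that of *Catsperz* 3.01 ± 0.250 and 3.03 ± 0.101 (SD, n = 3 each), and the samples of both groups overlapped for these 3 genes. In Kpna6-/- testes all ratios overlapped the WT values except that of *Catsperd*, which lay above them at 0.451 ± 0.0189.

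**Figure D3:**
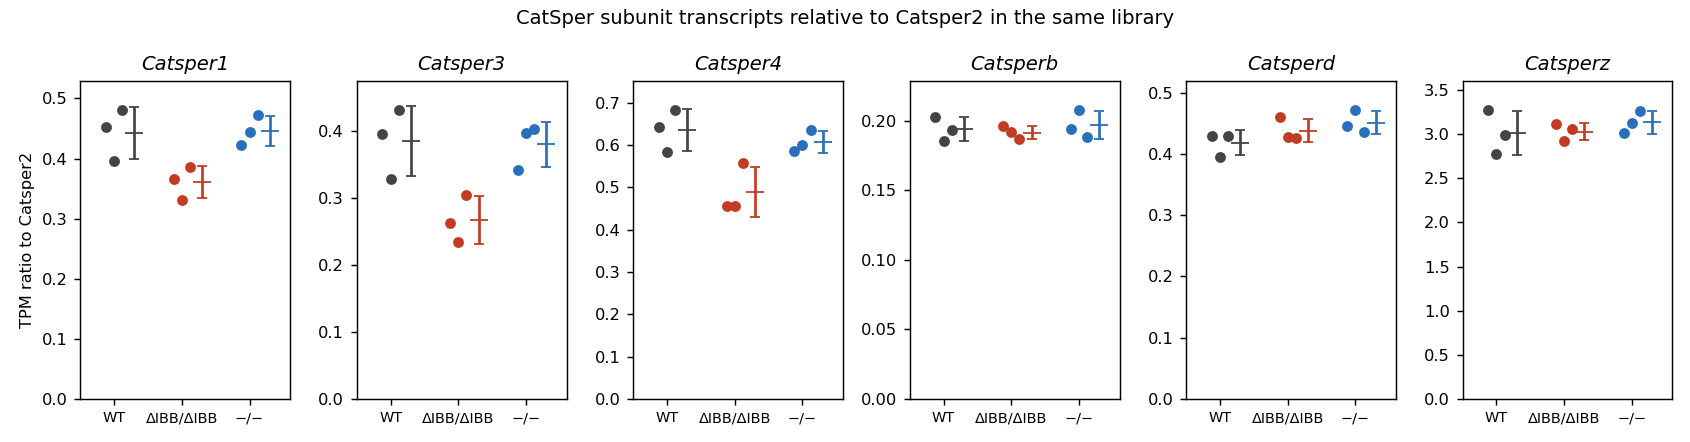
TPM of 6 CatSper subunit genes divided by the TPM of *Catsper2* in the same library (vertical axes, no unit, starting at 0), with points for samples and bars for the mean ± SD. The ratios of *Catsper1*, *Catsper3* and *Catsper4* are lower in ΔIBB/ΔIBB than in WT testes (0.361 against 0.443 for *Catsper1*), while those of *Catsperb*, *Catsperd* and *Catsperz* overlap.

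Between Kpna6-/- and WT testes, which share the WT samples with the comparison above, none of the 10 channel genes was called (0 of 10, edgeR), where 1.6% of 18681 genes tested were called in either direction. The log2 fold changes ran from -0.20 for *Lrrc52* to 0.02 for *Catsperd*, with 9 of 10 below 0 and a median of -0.09. Unadjusted P-values below 0.05 were found for 4 of 10 genes, against 14.9% of all genes tested, and DESeq2 called 1. The 4 were *Slc9c1* (-0.16, adjusted P = 0.112, edgeR), *Catsper4* (-0.16, adjusted P = 0.140), *Lrrc52* (-0.20, adjusted P = 0.257) and *Catsper2* (-0.10, adjusted P = 0.330), and in these same 4 genes the Kpna6-/- samples lay below the WT samples without overlap in CPM, against 9.98% of all genes tested. The gene called by DESeq2 was *Slc9c1*, with an adjusted P-value of 0.0468. The 95% interval was -0.37 to -0.03 for *Lrrc52*, -0.27 to 0.05 for *Catsper3* and -0.19 to 0.03 for *Kcnu1*, and it lay above the ΔIBB/ΔIBB against WT interval for 6 of the 10 genes, namely these 3, *Catsper1*, *Catsper4* and *Slc9c1*. For *Catsper2*, *Catsperb*, *Catsperd* and *Catsperz* both intervals overlapped.

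The mutant lines were also compared directly. All 10 channel genes were lower in ΔIBB/ΔIBB than in Kpna6-/- testes (adjusted P below 0.05, edgeR, 18752 genes tested), where 16.8% of all genes were called lower. The samples of both groups were separate in CPM for 10 of 10 genes, against 23.1% of all genes. In TPM the samples of *Slc9c1*, *Catsper2*, *Catsperb*, *Catsperd* and *Catsperz* overlapped. *Lrrc52* had a log2 fold change of -0.66 (adjusted P = 9.38e-05), *Catsper3* of -0.63 (adjusted P = 0.00035), *Kcnu1* of -0.60 (adjusted P = 9.55e-06), *Catsper1* of -0.42 (adjusted P = 0.000287) and *Catsper4* of -0.40 (adjusted P = 0.00137). *Slc9c1* was at -0.25 (adjusted P = 0.00245). *Catsperz*, *Catsperd*, *Catsperb* and *Catsper2* lay between -0.17 and -0.12, and these 4 were not called when libraries were scaled by size alone. *Catsper2* also lost its call when ΔIBB/ΔIBB replicate 1 (adjusted P = 0.0991) or Kpna6-/- replicate 1, 2 or 3 was left out (adjusted P = 0.0736, 0.0777 and 0.0705), and in the fit of all 9 samples (-0.11, adjusted P = 0.0704). *Catsperb* lost its call without ΔIBB/ΔIBB replicate 1 (adjusted P = 0.0597) or Kpna6-/- replicate 2 (adjusted P = 0.0884). With limma on TPM values *Catsper4* (-0.29, adjusted P = 0.0706) and *Slc9c1* (-0.11, adjusted P = 0.217) were not called either, and *Catsper2* was at 0.02 (adjusted P = 0.646).

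In the files 5 channel genes have more than 1 transcript. The share of the leading transcript was tested for the 4 with at least 2 transcripts of 1 TPM or more in WT, which leaves out *Slc9c1*, and none of these tests passed. *Kcnu1-201* held 87.8 ± 4.07% of the *Kcnu1* TPM in WT and 81.2 ± 3.13% in ΔIBB/ΔIBB testes (SD, n = 3, two-sided exact permutation P = 0.2, 0.84 after Benjamini-Hochberg adjustment over 12 tests). The leading transcript held 68.0 ± 3.4% and 68.4 ± 4.49% for *Catsper3*, 84.0 ± 3.90% and 82.5 ± 3.03% for *Catsper4*, and 94.8 ± 0.623% and 95.6 ± 0.869% for *Catsper2* in WT and ΔIBB/ΔIBB testes. With 3 samples against 3, this test cannot give a P-value below 0.1.

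The transcripts of a gene did not all follow its sum. Both protein-coding transcripts of *Catsper3* were lower in ΔIBB/ΔIBB testes, with *Catsper3-201* at 51.2 ± 8.49 TPM in WT and 33.6 ± 2.45 TPM in ΔIBB/ΔIBB, and *Catsper3-202* at 23.9 ± 0.604 and 15.8 ± 4.36 TPM. Of *Catsper4*, *Catsper4-201* went from 104 ± 8.16 to 74.5 ± 7.52 TPM and the non-coding *Catsper4-203* from 7.08 ± 2.25 to 2.08 ± 1.22 TPM, while *Catsper4-204* was at 10.2 ± 2.78 and 11.2 ± 1.79 TPM. Of *Kcnu1*, *Kcnu1-201* went from 34.9 ± 2.57 to 23.1 ± 1.15 TPM, while *Kcnu1-202* was at 2.50 ± 0.892 and 3.94 ± 1.16 TPM (SD, n = 3 for all). The values of the minor transcripts rest on how kallisto divides reads among overlapping transcripts.

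To show what lies upstream of the genes, promoter sequences were read from RefSeq. Windows (GRCm38.p6, from 250 bases before to 50 bases after a start) were found for 8 of the 10 genes, with 2 windows for *Catsperd*. The 120 bases before each RefSeq start are shown for the 3 genes with the largest falls among those matched and for the 2 genes with the smallest falls outside *Catsperz*, which shares exons with another gene. *Catsperd* has an upstream RefSeq start besides the one at the 5′ end of the gene in the annotation used here, near which its only transcript in the files begins, and both are shown. The sequences are written in the direction of transcription, and capitals mark TGACG or its reverse complement CGTCA.
Lrrc52, chr1:167466781-167466900, minus strand: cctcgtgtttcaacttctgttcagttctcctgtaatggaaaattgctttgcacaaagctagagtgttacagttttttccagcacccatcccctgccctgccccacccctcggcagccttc
Catsper3, chr13:55784459-55784578, plus strand: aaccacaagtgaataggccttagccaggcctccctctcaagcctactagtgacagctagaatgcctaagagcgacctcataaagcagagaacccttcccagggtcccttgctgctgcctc
Catsper4, chr4:134227384-134227503, minus strand: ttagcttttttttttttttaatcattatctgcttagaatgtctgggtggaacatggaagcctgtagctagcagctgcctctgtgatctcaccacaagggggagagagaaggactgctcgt
Catsper2, chr2:121413793-121413912, minus strand: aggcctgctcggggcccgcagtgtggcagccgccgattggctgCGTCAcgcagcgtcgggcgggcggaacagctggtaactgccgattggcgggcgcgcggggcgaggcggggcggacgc
Catsperd, start at the 5′ end of the gene, chr17:56628023-56628142, plus strand: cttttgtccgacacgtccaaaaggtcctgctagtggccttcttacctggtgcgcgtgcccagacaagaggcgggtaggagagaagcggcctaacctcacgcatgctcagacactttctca
Catsperd, upstream start, chr17:56626927-56627046, plus strand: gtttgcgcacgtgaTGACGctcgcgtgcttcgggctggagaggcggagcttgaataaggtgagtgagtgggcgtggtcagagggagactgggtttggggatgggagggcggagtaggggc

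The windows of *Catsper2* and *Catsperd* were rich in CpG dinucleotides. The 300-base window of *Catsper2* held 41 CpGs and 74.7% G and C, and those of *Catsperd* held 29 CpGs at the upstream start and 12 CpGs at the downstream start. The windows of *Catsper4*, *Catsper3* and *Lrrc52* held 2, 3 and 6 CpGs, near or below the median of 7 over all windows. *Slc9c1* with 3 CpGs fell by 0.40 on the log2 scale, while *Catsperz* with 9 CpGs and *Catsperb* with 1 CpG fell little. A link between CpG number and the size of the falls was not tested. *Kcnu1* and *Catsper1* had no window here. The start of *Catsper2* lies beside that of *Pdia3* on the opposite strand, and the genes share 18 exonic bases.

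Motifs of the spermatid factors named in the study were looked for on both strands. The cAMP response element TGACGTCA, bound by CREM, was in 1.79% of 32851 windows and in none of the channel gene windows (0 of 9). TGACG, part of the former, was in 20.8% of all windows and in those of *Catsper2* and of the upstream start of *Catsperd*. GTTGCC, a half-site of RFX factors (reverse complement GGCAAC), was in 12.5% of all windows and in 0 of the 9. These matches describe letters in a window and not binding.

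Other genes of the CatSper complex were read from a list of 11 genes, of which 9 were in the files. Between ΔIBB/ΔIBB and WT testes 6 were called lower and 0 higher, against 18.9% called lower and 17.7% called higher of all genes tested, and their median log2 fold change was -0.17. *Efcab9*, the calcium sensor that partners CATSPERZ, was at 226 TPM in WT and changed by -0.59 on the log2 scale (SE 0.07, adjusted P = 0.00016, edgeR), against -0.19 for *Catsperz*. *Slco6c1*, a transporter-like subunit, was at -0.40 (adjusted P = 9.19e-05) and *Tmem262* at -0.40 (adjusted P = 0.0121). *C2cd6*, a scaffold-type component, was at -0.20 (adjusted P = 0.00813), *Trim69* at -0.17 (adjusted P = 0.00848) and *Catsperg2* at -0.14 (adjusted P = 0.0197).

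*Catspere1* (-0.13, adjusted P = 0.0716), *Catspere2* (-0.07, adjusted P = 0.415) and *Catsperg1* (-0.03, adjusted P = 0.604) were not called. *Catsperg1* with *Catsperg2*, and *Catspere1* with *Catspere2*, are close paralogues whose reads may be divided uncertainly. In Kpna6-/- against WT testes none of the 9 was called (0 of 9, edgeR), and 3 had an unadjusted P-value below 0.05, against 14.9% of all genes tested. Between ΔIBB/ΔIBB and Kpna6-/- testes 4 were called lower, namely *Efcab9* (-0.53), *Tmem262* (-0.47), *Slco6c1* (-0.30) and *Catspere1* (-0.22). Of all genes tested in that comparison, 16.8% were called lower.

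A wider list of 25 genes of sperm ion transport and capacitation was read in the same way. Between ΔIBB/ΔIBB and WT testes 12 were called lower and 1 higher, against 18.9% lower and 17.7% higher of all genes tested. The other 12 were not called, and the median of the 25 genes was -0.14. The lowest adjusted P-values belonged to *Cabyr*, a calcium-binding protein of the tail sheath (-0.74, adjusted P = 9.96e-06, edgeR), *Prkar2a*, a regulatory subunit of protein kinase A (-0.58, adjusted P = 1.73e-05), *Adcy10*, the soluble adenylyl cyclase that raises cAMP in sperm (-0.55, adjusted P = 1.92e-05), and *Camk4*, a calcium-dependent kinase (-0.56, adjusted P = 4.06e-05). *Itpr1*, the receptor that releases calcium from stores, was the gene called higher (0.26, adjusted P = 0.0108). In Kpna6-/- against WT testes 0 of 25 were called (edgeR), and 3 had an unadjusted P-value below 0.05, near the 14.9% of all genes tested. Between ΔIBB/ΔIBB and Kpna6-/- testes 11 of the 25 were called lower and 3 higher. Of 18752 genes tested in that comparison, 3150 were called lower and 2523 higher.

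**Figure D4:**
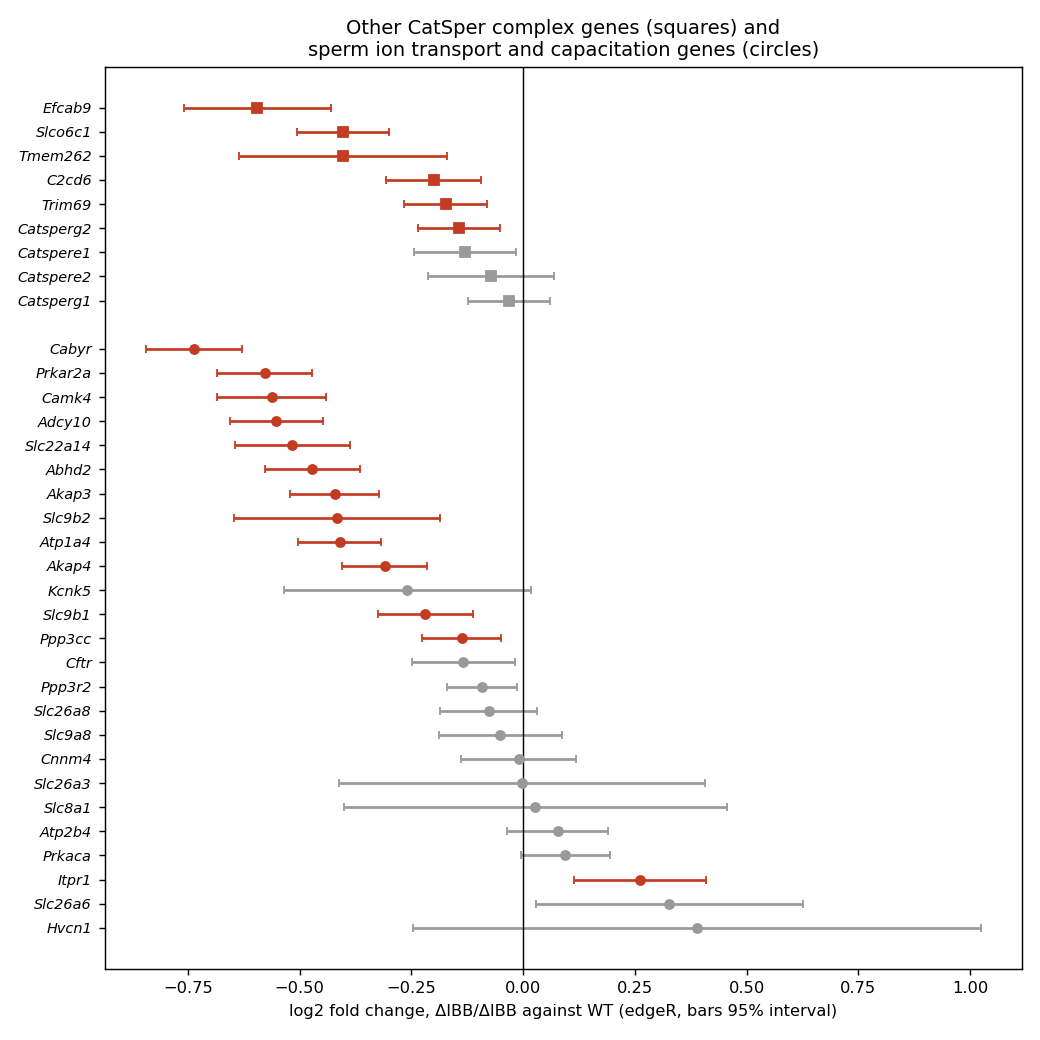
Log2 fold change between ΔIBB/ΔIBB and WT testes for 9 other CatSper complex genes (squares) and 25 sperm ion transport and capacitation genes (circles), with bars for the 95% interval (edgeR). Coloured points have an adjusted P-value below 0.05, among them *Efcab9* at -0.59, *Cabyr* at -0.74 and, on the higher side, *Itpr1* at 0.26.

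Markers of the cell types of the testis were read beside the channel genes, as transcript levels and not as numbers of cells. Between ΔIBB/ΔIBB and WT testes 10 of 10 round spermatid markers were called lower (median -0.46, summed level 1798 to 1995 TPM against 2192 to 2407 TPM in WT), as were 12 of 12 elongating spermatid markers (median -0.38, 61220 to 69370 TPM against 73050 to 83320 TPM), among them *Akap4*, which is also in the list of ion transport and capacitation genes. Of 12 pachytene spermatocyte markers 2 were called lower and 1 higher (median -0.06, 8446 to 8608 TPM against 8032 to 8529 TPM). All 12 Sertoli cell markers were called higher (median 0.59, 1359 to 1614 TPM against 814 to 910.0 TPM). Of the 8 markers in each list of another testis cell type, those called higher were 3 for spermatogonia, 2 for Leydig cells, 3 for macrophages and 3 for peritubular and endothelial cells, and 1 spermatogonial marker was called lower. For all these lists, the shares over all genes tested were 18.9% called lower and 17.7% called higher. Of the 14 epididymal markers 4 could be tested, and *Crisp1* and *Spink8* were called higher (median of the 4 tested 1.94). The summed level of this list was 655.5 TPM in ΔIBB/ΔIBB replicate 3, 539 and 546 TPM in the other ΔIBB/ΔIBB samples and 500.2 to 528 TPM in WT. Without ΔIBB/ΔIBB replicate 3, 10 channel genes were still called lower, as were 3285 of all genes. The other ΔIBB/ΔIBB samples also lay above all WT samples in the summed level of this list, so leaving out replicate 3 does not remove that difference.

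Between ΔIBB/ΔIBB and Kpna6-/- testes, 10 of 10 round spermatid markers (median -0.39) and 12 of 12 elongating spermatid markers (median -0.42) were called lower and 12 of 12 Sertoli cell markers higher (median 0.40). Of 18752 genes tested, 3150 were called lower and 2523 higher. Between Kpna6-/- and WT testes 3 of 12 Sertoli cell markers were called higher (median 0.25, edgeR) and none of the spermatid markers was called. The spermatogonial marker *Gfra1* was called lower. Of all genes tested, 1.6% were called in either direction. Unadjusted P-values were below 0.05 for 7 of 12 Sertoli cell, 2 of 10 round spermatid and 0 of 12 elongating spermatid markers, against 14.9% of all genes tested. The part of these markers' cell types in the falls of the channel genes was not tested beyond the ratio given next.

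The summed TPM of the 10 channel genes was divided by that of the round spermatid markers in each library. The ratio was 0.573, 0.592 and 0.560 in WT, 0.617, 0.639 and 0.604 in ΔIBB/ΔIBB and 0.579, 0.574 and 0.565 in Kpna6-/- testes. It was higher in all 3 ΔIBB/ΔIBB samples than in all others, and the ΔIBB/ΔIBB mean was 1.08 times the WT mean (two-sided exact permutation P = 0.1, the smallest value 3 against 3 samples allow, and 0.15 after adjustment over 3 tests). The ratio did not separate Kpna6-/- from WT testes (exact permutation P = 0.9). *Catsperz*, which supplies the largest part of the sum, decided the difference between ΔIBB/ΔIBB and WT testes. Without it the ratio was 0.319 ± 0.0121 in WT and 0.321 ± 0.00937 in ΔIBB/ΔIBB testes (SD, n = 3, exact permutation P = 0.9). This sum joins genes of unequal change, with ΔIBB/ΔIBB mean TPM from 0.604 of the WT mean for *Lrrc52* to 0.992 for *Catsperd*. It therefore does not show that each gene followed the markers. Against the pachytene markers the ratio was 0.158 ± 0.00365 in WT, 0.136 ± 0.00325 in ΔIBB/ΔIBB and 0.150 ± 0.00661 in Kpna6-/- testes. The samples of each mutant line lay below all WT samples, and those of ΔIBB/ΔIBB below those of Kpna6-/- (exact permutation P = 0.1 in each comparison, the smallest possible).

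**Figure D5:**
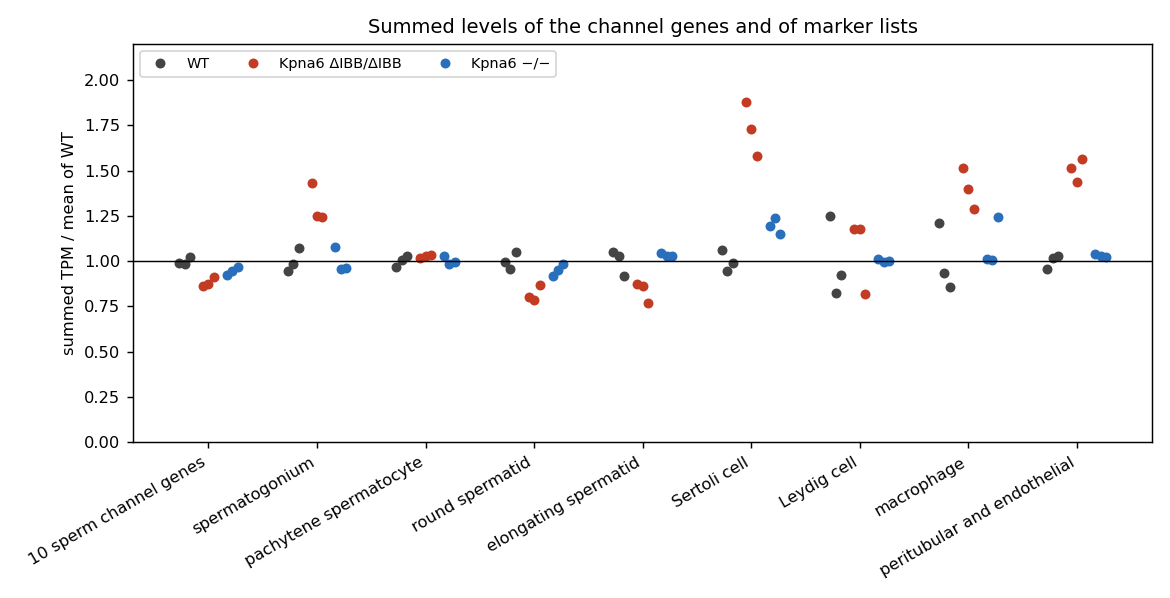
Summed TPM of the 10 channel genes and of 8 marker lists in each library, divided by the mean of the 3 WT libraries (vertical axis, no unit, starting at 0). Each point is 1 testis. The channel genes and the spermatid markers lie below 1 in ΔIBB/ΔIBB testes, pachytene markers lie near 1, and Sertoli cell markers lie above 1.

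The genes whose pattern over the 9 samples was most like the mean pattern of the channel genes were sought among 9093 genes with a mean of at least 10 TPM. Likeness was the root mean square difference of log2 CPM after subtraction of each gene's WT mean, and it is a description without a test. The closest were *Ptpn4* (0.0234), *Phyhipl* (0.029), *Lyrm7* (0.0302), *Psd3* (0.0308) and *Rpgrip1l* (0.0315). The mean pattern itself was -0.49, -0.48 and -0.37 in the ΔIBB/ΔIBB samples and -0.14, -0.08 and -0.07 in the Kpna6-/- samples, relative to WT.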

How the data were processed

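Whole testes of 3 groups of 3 mice were analysed. The authors mapped reads of poly(A) libraries with kallisto (version 0.45 by the submitters' processing notes, mm10) and deposited, for each sample, an estimated count and a TPM value for 96626 transcripts, without further normalization between samples. The library kit as described does not mark strand. The GENCODE M21 annotation placed 95301 transcripts in 32035 genes, and 1325 were not in it. Estimated counts and TPM were summed per gene. Summed counts were rounded and tested per pair of groups with edgeR 4.0.16 (filterByExpr, TMM, quasi-likelihood test) in R 4.3.3, with Benjamini-Hochberg adjustment over all genes tested. A gene was called at an adjusted P-value below 0.05. The scripts were tested on simulated data.

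Alternatives were DESeq2 1.42.0, limma 3.58.1 on log2(TPM + 1) or log2(TPM + 0.1), with genes of at least 0.1 mean TPM or all genes, RLE or library-size scaling, other filters, a replicate block, a fit of all 9 samples and leaving out each sample. Single ratios and shares were compared with exact permutation tests (scipy 1.17.1). Sequence shared with other transcripts (at least 100 bases at 95% identity) was sought with blastn 2.17.0+, and 1 channel gene had any. Named genes were all channel genes, *Kpna6*, the other CatSper genes, up to 4 genes per direction of the ion transport list by smallest adjusted P-value, and the 5 genes of closest pattern. The channel genes and all lists were chosen with earlier results of these data known. Scaling can decide the call of a small change.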

Additional observations from a re-analysis of the deposited data

How the results depend on the processing

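With limma on TPM values, in all 3 settings, 6 channel genes were called between ΔIBB/ΔIBB and WT testes and 4 between ΔIBB/ΔIBB and Kpna6-/- testes, where scaling by library size alone gave 6. The cause was not tested. Of all genes, limma on log2(TPM + 1) called 1451 lower and 3494 higher between ΔIBB/ΔIBB and WT testes. Between ΔIBB/ΔIBB and Kpna6-/- testes it called 1167 lower and 3217 higher, and library-size scaling called 2016 lower and 4931 higher. In the latter comparison *Catsper2* turned positive with limma (0.02427, 0.02439 and 0.02427). *Catsperd* between Kpna6-/- and WT turned to -0.01137 without Kpna6-/- replicate 2, in a range up to 0.0411 over the samples left out. DESeq2 called 1 channel gene between Kpna6-/- and WT testes. Of 160 gene and setting pairs in each comparison, 144, 158 and 131 kept direction and call in ΔIBB/ΔIBB against WT, Kpna6-/- against WT and ΔIBB/ΔIBB against Kpna6-/-. Over all genes, 4409 were called between ΔIBB/ΔIBB and WT with limma without a filter, against 6874 with edgeR. Between Kpna6-/- and WT 299 were called by edgeR, 624 without a filter, 24, 28 and 19 with limma, and 92 to 518 when a sample was left out, 92 without Kpna6-/- replicate 1 and 518 without WT replicate 1. The ratio of channel genes to spermatid markers, 1.078, 0.9953 and 1.083 in the 3 comparisons, became 0.8593, 0.9447 and 0.9095 with pachytene markers. Leaving out *Catsperz*, an alternative chosen after seeing the data, gave 1.008 between ΔIBB/ΔIBB and WT and 1.033 between ΔIBB/ΔIBB and Kpna6-/-.

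The replicate numbers of the labels are not stated to pair samples, so they were not taken as pairs. Deviations of same-numbered samples correlated at 0.0156, 0.103 and 0.0681 for ΔIBB/ΔIBB and WT. The values were -0.0487, 0.0135 and 0.00572 for Kpna6-/- and WT, and 0.0111, 0.0802 and 0.142 for ΔIBB/ΔIBB and Kpna6-/-. With the replicate block 10, 0 and 10 channel genes and 6793, 229 and 6032 of all genes were called. Depth limits *Lrrc52* most, with 365 to 777 counts per library.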
